A study of Homo sapiens with 6 samples.

Results

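The HOX genes of clusters A to D were examined in OVCA433 cells with and without added versican. Members were the genes whose probe sets carry 1 annotated symbol made of HOXA, HOXB, HOXC or HOXD and a number, with antisense genes left out. Of 39 such genes in RefSeq, 28 had a probe set of that kind, among 19775 genes measured in all. They comprised HOXA2, all 10 HOXB genes, all 9 HOXC genes and 8 HOXD genes, and were read by 44 probe sets. HOXD3 and the HOXA genes other than HOXA2 were not analysed here. Each gene was represented by its brightest probe set, by mean log2 value over the 6 arrays.

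OVCA433 is a human cell line that the series describes as high-grade serous ovarian cancer, and expression was read on Affymetrix U133 Plus 2.0 arrays. Both groups were grown in RPMI1640 with 10% fetal bovine serum and had their medium replaced 24 hours after seeding. Control cells (3 samples) received fresh medium alone and versican cells (3 samples) fresh medium with versican, a matrix proteoglycan that binds hyaluronan. RNA was taken at 48 hours. The sources used here do not state how much versican was added or in what form, and the harvest step is worded for transfected cells, which no sample label mentions. The series calls the samples independent, but the labels do not tie each sample to a culture of its own, so the p-values reflect sample-to-sample spread only, and that may be technical. All 8 epithelial markers examined were on in control cells. Of these, 2 fell with versican (background 20.6% of all tested genes) and 0 rose (background 21%). They were CLDN7 and KRT19 (log2 -0.39 and -0.21, adjusted p = 0.00038 and 0.016), and their part in the HOX results was not tested. KRT19 was lost without control replicate 3 (adjusted p = 0.075) or versican replicate 1 (0.065), with median centring (0.308) and with the mean of its probe sets (0.197). PAX8, a transcription factor of Müllerian and serous epithelium, was on, reading 2208, 1943 and 1952 in control and 4025, 3870 and 3520 with versican (1.86-fold higher, adjusted p = 6.1e-06). Of 8 tested Müllerian and serous markers 4 rose, namely PAX8, MECOM, WNT7A and LHX1, and MSLN fell, where 21% and 20.6% of all tested genes did so. WNT7A and LHX1 were not on in control, with mean signals of 200 and 178. They passed the filter on brightness through their versican arrays (means of 342 and 240), so their rise is partly set by the filter. MECOM was lost without versican replicate 3 (adjusted p = 0.0501), with median centring (0.090) and with the mean of its probe sets (0.115). LHX1 was lost without control replicate 1 or 2 or versican replicate 1 or 3 (0.059 to 0.112) and with no filter (0.091). MSLN was lost without control replicate 3 or versican replicate 1 or 2 (0.052 to 0.077) and with median centring (0.080). The serous marker WT1 was not on, with versican signals of 24.1, 22.9 and 36.8 and lower ones in control.

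HOX proteins are homeodomain transcription factors that give cells their position along the body axis. Their genes lie in clusters, and in the embryo those at the HOX1 end are generally switched on earlier and further forward than those at the HOX13 end. Adult epithelia and tumours keep part of this pattern, and posterior HOXA genes pattern the Müllerian tract. Retinoic acid induces genes near the HOX1 end, Trithorax and Polycomb complexes hold clusters active or silent, and the TALE homeodomain proteins of the PBX and MEIS families bind DNA together with HOX proteins.

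The sequences below are shown because RefSeq gives 1 start site to a gene that was on and a gene that was not, and because the HOXB block that was on ended between HOXB1 and HOXB2. Of the 28 members, 11 had an entry in RefSeq's promoter table (GRCh38.p14), with 10 distinct windows, and each window printed is the 250 bases before the start. HOXC4 and HOXC5 share 1 window, at chr12:54016638-54016887 on the + strand. HOXD4, on in control, lies at chr2:176151300-176151549 on the + strand, and HOXB1, not on, at chr17:48531012-48531261 on the - strand. Capitals mark CCAAT, the box bound by NF-Y, and TGATNNAT, a form of the composite site of PBX and HOX proteins, each on either strand.
HOXC4 and HOXC5: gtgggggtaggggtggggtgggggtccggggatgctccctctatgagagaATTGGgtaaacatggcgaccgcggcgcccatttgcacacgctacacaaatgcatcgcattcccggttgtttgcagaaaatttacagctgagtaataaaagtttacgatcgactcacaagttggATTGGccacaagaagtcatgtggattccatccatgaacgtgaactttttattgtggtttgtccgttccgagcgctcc
HOXD4: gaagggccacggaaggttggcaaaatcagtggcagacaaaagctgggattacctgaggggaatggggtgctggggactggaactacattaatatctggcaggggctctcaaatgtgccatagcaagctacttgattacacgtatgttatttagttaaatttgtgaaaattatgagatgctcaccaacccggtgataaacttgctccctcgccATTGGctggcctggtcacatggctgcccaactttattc
HOXB1: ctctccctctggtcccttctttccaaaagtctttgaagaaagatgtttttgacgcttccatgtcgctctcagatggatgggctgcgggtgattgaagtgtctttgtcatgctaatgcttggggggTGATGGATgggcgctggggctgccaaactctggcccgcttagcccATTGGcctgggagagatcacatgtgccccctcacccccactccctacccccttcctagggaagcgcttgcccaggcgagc

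A set of 6 motifs was searched on both strands in the 250-base windows, with no overlap rule between them. CCAAT was in 8 of the 10 distinct HOX windows and in 32% of all 35116 promoters. TGATNNAT was in 3 HOX windows, those of HOXA2, HOXB1 and HOXD11, and in 6.47% of all promoters. GGGCGG, a GC box, was in 4 HOX windows (42.6% of all), TATAAA in 1 (10.7%), TAATTA in 1 (4.35%) and AGGTCA, the repeat unit of retinoic acid response elements, in 0 (12.1%). These matches describe the letters of the windows, and most HOX genes that were on had no entry in the table.

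A gene was called on in control when its value exceeded the median of all genes on each of the 3 control arrays, a signal of 195 to 214. By this rule 12 of the 28 HOX genes were on, against 48.6% of all genes. They were HOXB2 to HOXB9 without a gap, then HOXC4, HOXC6 and HOXC9, and HOXD4. The run in HOXB depends on the rule. At the 75th percentile 4 genes were on, HOXB2, HOXB3, HOXB6 and HOXB7. Without probe sets ending _s_at or _x_at, which can match more than 1 transcript, 7 were on and HOXB5 to HOXB8 were not among them. HOXB5, HOXB7 and HOXC6 have only probe sets with these endings, so they were not measured in that setting. HOXB6 and HOXB8 were read there by a dim probe set. The same 12 genes made up the tested set. Signals of different probe sets are not on one scale, so being on is a place on the array, and the values that follow rank no gene against another.

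**Figure D1:**
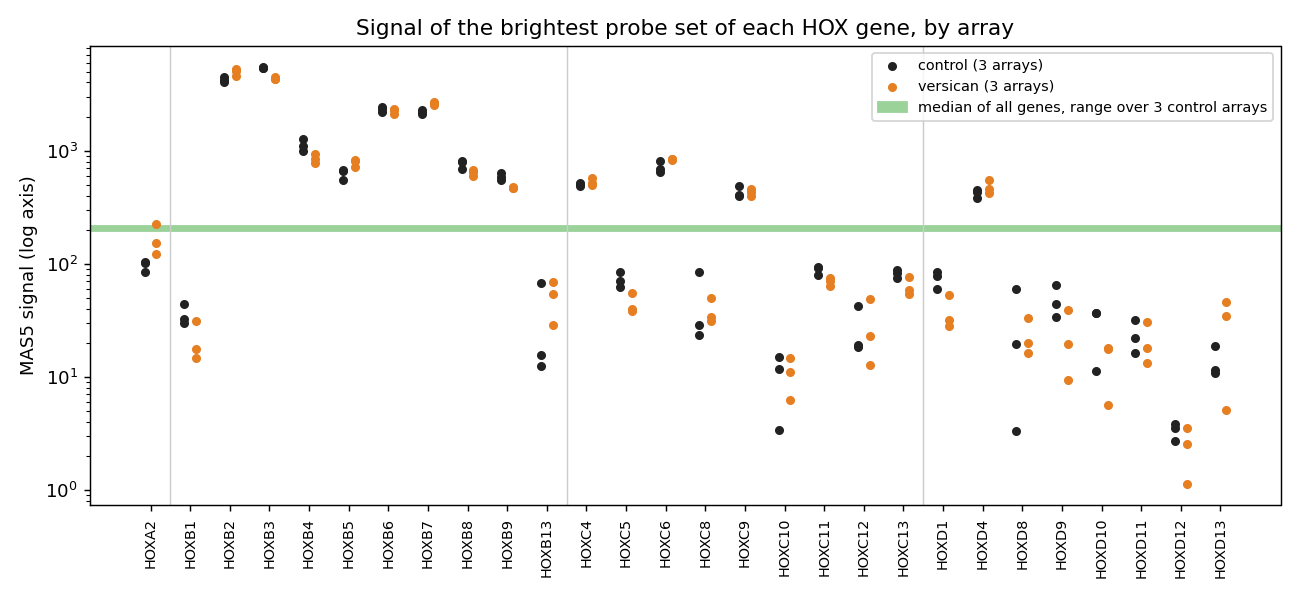
MAS5 signal (log axis) of the brightest probe set of each of 28 HOX genes, in cluster order, with 1 point per array (3 control, 3 versican) and a band for the median of all genes on the control arrays (195 to 214). HOXB2 to HOXB9, HOXC4, HOXC6, HOXC9 and HOXD4 lie above the band on every array, and all other genes lie below it on the control arrays.

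With versican, the HOXB block moved in both directions by small amounts. HOXB2, HOXB5 and HOXB7 rose and HOXB3, HOXB4, HOXB8 and HOXB9 fell, by 1.16-fold to 1.29-fold, while HOXB6 did not pass. No HOXC or HOXD gene passed, though HOXC6 had an unadjusted p under 0.05. In all 7 of 12 tested HOX genes were called, against a background of 41.6% of the 9887 genes tested, with 3 higher (background 21%) and 4 lower (background 20.6%). None of the 7 reached 1.5-fold, which 21.3% of all called genes did. The median log2 difference was 0.04 over the 12 HOX genes and 0.0070 over all tested genes, and the median absolute difference was 0.25 against 0.18. Groups did not overlap for 8 of the 12, with a background of 52.2%. Leaving out 1 array reduced the 3 higher calls to 1 (without control replicate 1 or versican replicate 1) and the 4 lower calls to 2 (without control replicate 2). In bulk RNA, fewer cells with a transcript and less of it per cell cannot be told apart.

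**Figure D2:**
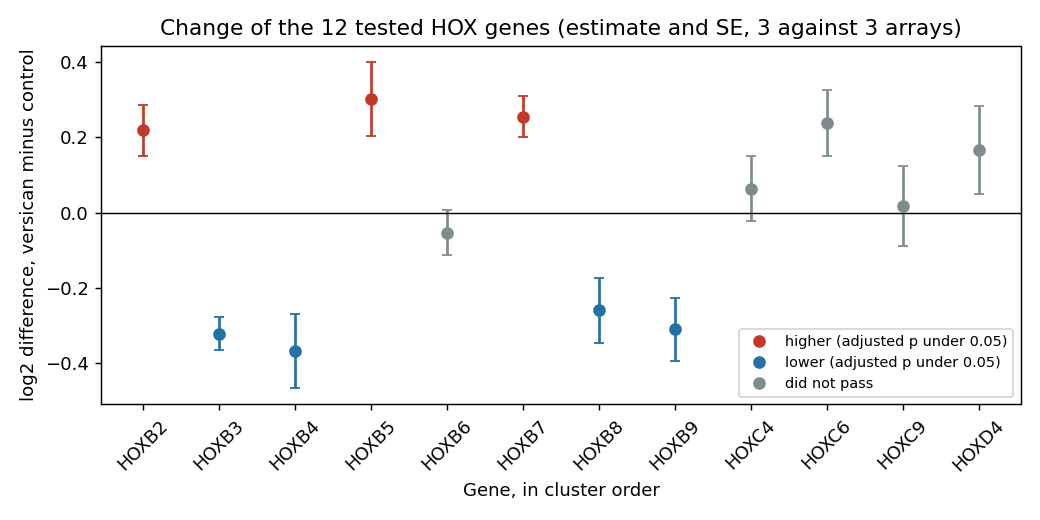
Log2 difference, versican minus control, of the 12 tested HOX genes in cluster order (points, limma estimate; bars, SE; 3 arrays per group), coloured by call. HOXB2, HOXB5 and HOXB7 lie above 0 and HOXB3, HOXB4, HOXB8 and HOXB9 below it, with HOXB6 near 0 between them.

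HOXB2 and HOXB3, neighbours at the HOX1 end of the block that specify hindbrain segments in the embryo, went opposite ways. HOXB2 read 4198, 4509 and 4045 in control and 5304, 5040 and 4520 with versican. All 3 versican arrays were above the controls, versican replicate 3 only just. The rise was 1.16-fold (log2 0.22, SE 0.07, adjusted p = 0.025). It did not pass without control replicate 1 (adjusted p = 0.056) or 3 (0.084), nor without versican replicate 1 (0.106) or 2 (0.067), nor with median centring (0.091) or without an intensity trend (0.058). HOXB3 read 5376, 5504 and 5413 in control and 4266, 4443 and 4317 with versican. Both groups were tight and far apart. HOXB3 fell 1.25-fold (log2 -0.32, SE 0.04, adjusted p = 0.00029), and was called under all 19 alternatives applied to it.

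HOXB4, known for expanding blood stem cells, read 988, 1095 and 1256 in control and 936, 784 and 850 with versican. Every versican array was below every control. It fell 1.29-fold (log2 -0.37, SE 0.10, adjusted p = 0.013) and was called under all 18 alternatives that tested it. HOXB3 and HOXB4 overlap in RefSeq, as do HOXC4, HOXC5 and HOXC6, and HOXD3 and HOXD4, so probe sets within the shared spans may read more than 1 transcript.

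Between HOXB4 and HOXB5 lies MIR10A, whose mature miR-10a-5p is shown for the locus that interrupts the HOXB block. Its seed, bases 2 to 8, is in capitals, and RefSeq places it at chr17:48579904-48579926 on the - strand of GRCh38.p14.
hsa-miR-10a-5p: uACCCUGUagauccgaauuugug

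The MIR10A probe set read 184, 204 and 158 in control and 160, 202 and 126 with versican. The groups overlapped, the gene lay below the filter, and a probe set of this kind does not read the mature microRNA.

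HOXB5, which acts in neural crest and gut innervation, read 553, 661 and 678 in control and 824, 709 and 807 with versican. The groups did not overlap. It rose 1.23-fold (log2 0.30, SE 0.10, adjusted p = 0.031). The call was lost without control replicate 1 (adjusted p = 0.095), versican replicate 1 (0.108) or versican replicate 3 (0.095), with no filter (0.053) and with the mean of its probe sets (0.074). HOXB6 read 2319, 2186 and 2435 in control and 2268, 2108 and 2310 with versican. The groups overlapped almost fully, and the log2 difference was -0.05 (SE 0.06, adjusted p = 0.51).

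HOXB7, widely reported as abundant in ovarian and breast carcinomas, read 2109, 2199 and 2272 in control and 2638, 2713 and 2511 with versican. All versican arrays were higher. HOXB7 rose 1.19-fold (log2 0.26, SE 0.05, adjusted p = 0.0038), and was called under all 18 alternatives that tested it.

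HOXB8 and HOXB9 end the block. HOXB8, a regulator of myeloid progenitors, read 695, 799 and 809 in control and 597, 672 and 644 with versican. The groups did not overlap, though control replicate 1 lay close to the versican arrays. It fell 1.20-fold (log2 -0.26, SE 0.09, adjusted p = 0.035). That call was lost without control replicate 2 (adjusted p = 0.102) or 3 (0.113), without versican replicate 1 (0.121) or 3 (0.072), with no filter (0.056) and with median centring (0.113). With the mean of its probe sets, which takes in a dim one, the log2 difference was -0.62 (adjusted p = 0.015). HOXB9, which patterns the thoracic skeleton and mammary gland, read 552, 633 and 581 in control and 470, 472 and 471 with versican. The 3 versican arrays were nearly equal and below all controls. It fell 1.24-fold (log2 -0.31, SE 0.08, adjusted p = 0.014). The HOXB9 call was lost without control replicate 2 (adjusted p = 0.051), with median centring (0.062) and with the mean of its probe sets (0.159), though the difference stayed negative.

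The further probe sets that were bright enough to test gave smaller differences than the ones used. With every probe set as its own unit, where 33.2% of 20545 were called, HOXB7's 2 further probe sets had log2 differences of 0.14 (SE 0.06, adjusted p = 0.092) and 0.20 (SE 0.07, adjusted p = 0.035). HOXB5's second gave 0.13 (SE 0.10, adjusted p = 0.32). HOXB3's second probe set, with control signals of 164 ± 22.2 (SD, n = 3), gave -0.24 (SE 0.17, adjusted p = 0.30), and HOXB9's second gave -0.02 (SE 0.13, adjusted p = 0.94). Each kept the sign of the one used, and 1 of these 5 passed. HOXB5, HOXB6, HOXB7, HOXB8 and HOXC6 rest on probe sets ending _s_at. The second probe sets of HOXB6 and HOXB8 were too dim to test, at 38.8 ± 8.53 and 37.9 ± 15.2 in control and 26.8 ± 12.7 and 12.3 ± 11.8 with versican (SD, n = 3 each).

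**Figure D3:**
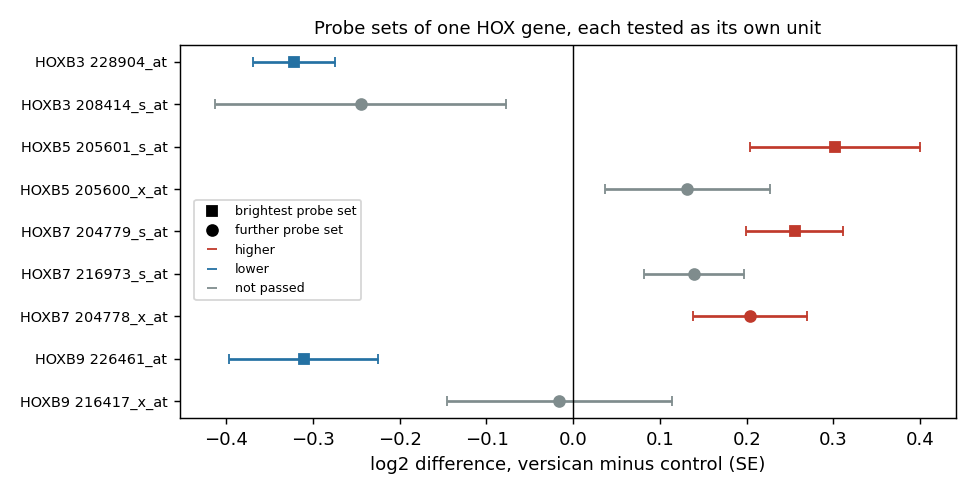
Log2 difference, versican minus control, with SE, for each tested probe set of the 4 HOX genes that have more than 1 tested (3 arrays per group). Squares mark the brightest probe set, and every tested further probe set lies on the same side of 0 and nearer to it.

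In the HOXC cluster the genes that were on alternated with genes that were not. HOXC4, a trunk and lymphoid HOX gene, read 511, 517 and 482 in control and 513, 500 and 570 with versican. These overlapped (log2 0.06, SE 0.09, adjusted p = 0.59). HOXC5, which shares the promoter window printed above, read 84.0, 69.8 and 62.4 in control and 55.0, 39.9 and 37.9 with versican, below the on level throughout.

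HOXC6, a trunk HOX gene found raised in several carcinomas, read 684, 645 and 803 in control and 847, 845 and 823 with versican. The groups did not overlap, yet its log2 difference of 0.24 (SE 0.09) missed the threshold (adjusted p = 0.051). It passed under 5 of 17 alternatives, with adjusted p from 0.012 without control replicate 3 to 0.16. HOXC9 read 395, 484 and 404 in control and 462, 432 and 401 with versican. The groups overlapped (log2 0.02, SE 0.11, adjusted p = 0.91). HOXC8 and HOXC10 to HOXC13 had control signals between 3.42 and 93.4.

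HOXD4 was the only HOXD gene that was on among the 8 measured. It read 431, 450 and 379 in control and 548, 457 and 420 with versican. The groups overlapped (log2 0.17, SE 0.12, adjusted p = 0.28). Its further probe set was dim, with control signals of 98.3 ± 17.0 (SD, n = 3). The other 7 HOXD genes, HOXD1 and HOXD8 to HOXD13, had control signals between 2.70 and 84.5.

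The 16 HOX genes below the filter were not tested. Groups did not overlap for 4 of them (background 15.6% of genes below the filter). HOXA2, which patterns the second branchial arch, read 101, 104 and 84.9 in control and 121, 152 and 224 with versican. Its versican arrays were all above the controls but spread widely. Adjusted p was 0.080 when all genes were tested and 0.035 with every probe set as its own unit. HOXD1 read 60.0, 84.5 and 78.1 in control and 32.1, 28.3 and 52.7 with versican. HOXC5 and HOXC11 were likewise lower in every versican array, HOXC11 with 91.6, 79.9 and 93.4 against 63.5, 74.7 and 70.8. With no filter no HOX gene outside the HOXB block passed, where 19.8% of all genes did. HOXB1 and HOXB13, at either end of the HOXB cluster, stayed dim in both groups, at 14.6 to 44.5 and 12.5 to 69.7.

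Genes that act with or upstream of the HOX clusters were grouped into lists by role. Of 4 tested TALE cofactors 1 rose and 1 fell, near the background of 41.6% called. PBX3 read 1008, 819 and 832 in control and 1483, 1308 and 1294 with versican, a rise of 1.53-fold (log2 0.61, SE 0.09, adjusted p = 0.00048). MEIS2 read 2491, 2416 and 2561 in control and 1715, 1619 and 1583 with versican, a fall of 1.51-fold (log2 -0.60, SE 0.05, adjusted p = 1.7e-05). Both differences were larger than those of any called HOX gene. The other 2 did not pass.

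Among 10 tested retinoic acid pathway genes 6 fell (background 20.6%) and 0 rose (background 21%; 0 also at an unadjusted p under 0.05), with a median log2 difference of -0.39 against 0.0070 over all tested genes. CRABP2, which carries retinoic acid to the nucleus, read 7775, 8913 and 8487 in control and 3853, 4598 and 4389 with versican, a 1.96-fold fall (log2 -0.97, SE 0.07, adjusted p = 5.8e-06). CYP26B1, which degrades retinoic acid, read 708, 816 and 821 in control and 484, 568 and 496 with versican (log2 -0.58, SE 0.09, adjusted p = 0.00076). RARB, a receptor gene that retinoic acid induces, read 304, 310 and 244 against 185, 198 and 180, a 1.48-fold fall (adjusted p = 0.0059). In none of these genes did the groups overlap (background 52.2% of tested genes without overlap). The versican signals of RARB lay below the lowest mean signal tested (201), so RARB passed the filter through its control arrays. ALDH1A1, which makes retinoic acid, fell 1.42-fold (adjusted p = 0.0055) and DHRS3, a retinal reductase, 1.30-fold (adjusted p = 0.0014). ALDH1A3, which also makes retinoic acid and is named after its value was seen, did not pass (log2 0.01, SE 0.07, adjusted p = 0.90). The sixth, RXRB, fell 1.29-fold (adjusted p = 0.048), and was called under 7 of 18 alternatives. It was lost without any 1 of control replicates 1 and 2 or versican replicates 1 to 3 (adjusted p = 0.083 to 0.139). CYP26B1 did not pass with the mean of its probe sets (adjusted p = 0.62).

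Of 13 tested Polycomb genes 5 rose (background 21%) and 1 fell (background 20.6%), with a median log2 difference of 0.08. The 6 calls are near the 41.6% called among all tested genes. With median centring 2 rose and 0 fell, where 30.5% of all tested genes were called. EZH2, the histone methyltransferase of the complex, read 981, 940 and 1097 in control and 1387, 1682 and 1431 with versican. It rose 1.48-fold (log2 0.57, SE 0.09, adjusted p = 0.00058), and its partners EED and SUZ12 rose 1.15-fold each. EED was not called without versican replicate 2 (adjusted p = 0.054), and neither was called with median centring (0.123 and 0.107) or with the mean of probe sets (0.99 and 0.20). CBX2 and PHC1 also rose and PHC3 fell (log2 0.46, 0.22 and -0.24, adjusted p = 0.018, 0.014 and 0.035). CBX2 was lost without control replicate 3 (adjusted p = 0.063), versican replicate 1 (0.074) or versican replicate 3 (0.067). PHC1 was lost with median centring (0.076) and without control replicate 3 (0.053) or versican replicate 3 (0.051). PHC3 was called under 11 of 19 alternatives. It was lost without any 1 of control replicates 2 and 3 or versican replicates 1 and 3 (0.062 to 0.128), among others. Of 13 tested Trithorax and MLL genes 2 rose and 3 fell, near the background of 41.6% called, with a median log2 difference of 0.03. They were KMT2A and DPY30 (log2 0.23 and 0.19) and KMT2C, ASH2L and KDM6A (log2 -0.19, -0.21 and -0.22), all genes of histone methylation or demethylation complexes. None of those 5 was called under all alternatives, and with the mean of probe sets KMT2A and KMT2C changed sign (log2 -0.013 and 0.011). Among 3 other tested regulators 2 rose (background 21%), 0 fell (background 20.6%) and 1 did not pass. GMNN, which encodes the replication inhibitor geminin that also binds HOX proteins, rose 1.81-fold (adjusted p = 9.8e-06). CTCF, the insulator protein of HOX cluster boundaries, rose 1.23-fold (adjusted p = 0.0041).

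**Figure D4:**
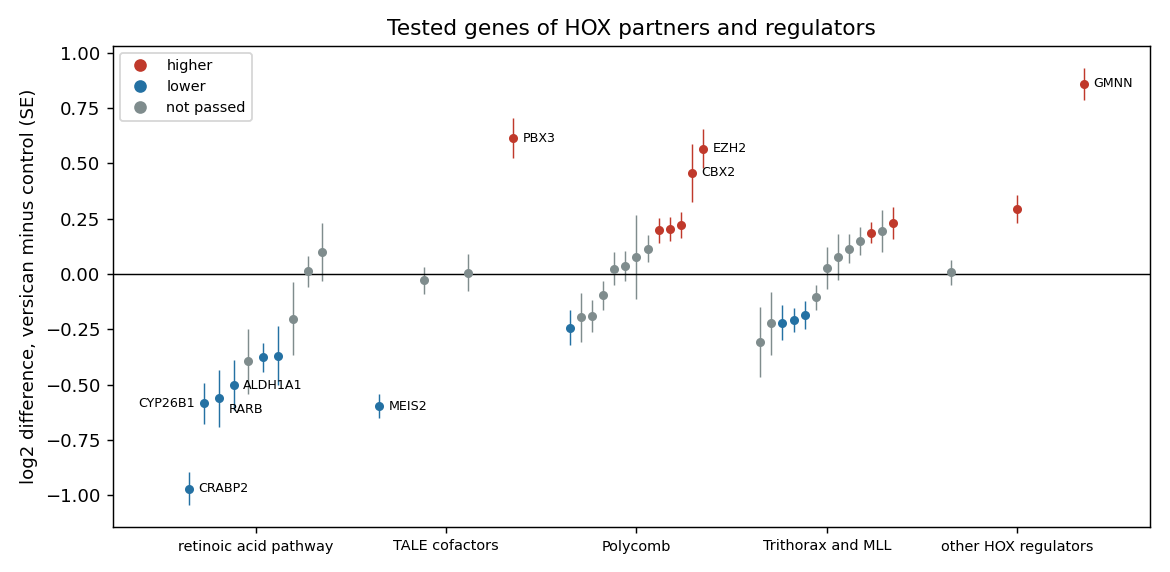
Log2 difference, versican minus control, with SE, of tested genes in 5 gene lists (retinoic acid pathway, TALE cofactors, Polycomb, Trithorax and MLL, other regulators), coloured by call, 3 arrays per group. In the retinoic acid list 6 of 10 genes were called lower and 0 higher. The other lists, with 4, 13, 13 and 3 tested genes, hold 10 higher and 5 lower calls. Among all tested genes 21% were called higher and 20.6% lower.

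Noncoding genes of the clusters were mostly dim. Of 12 measured, 2 were tested and 0 were called by limma, with 0 at an unadjusted p under 0.05. HOXB-AS1 had a log2 difference of -0.05 (SE 0.13, adjusted p = 0.78), and HAGLR, antisense in the HOXD cluster, 0.02 (SE 0.22, adjusted p = 0.95). HAGLR was not on in control by the rule above. HOXA-AS2 was on in control but fell below the filter through its lower versican arrays. It read 238, 240 and 209 in control and 169, 165 and 150 with versican. HOTAIR, of the HOXC cluster, read 135, 77.1 and 71.3 against 49.1, 63.3 and 38.6. Both were lower in every versican array (background 15.6% of genes below the filter), and like MIR10A they were chosen after their values were seen. With no filter, which tested all 12, HOXA-AS2 was called lower (log2 -0.46, adjusted p = 0.048) and HOTAIR was not (adjusted p = 0.12). HOXA-AS2 was also called without _x_at and _s_at probe sets (adjusted p = 0.018).

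**Figure D5:**
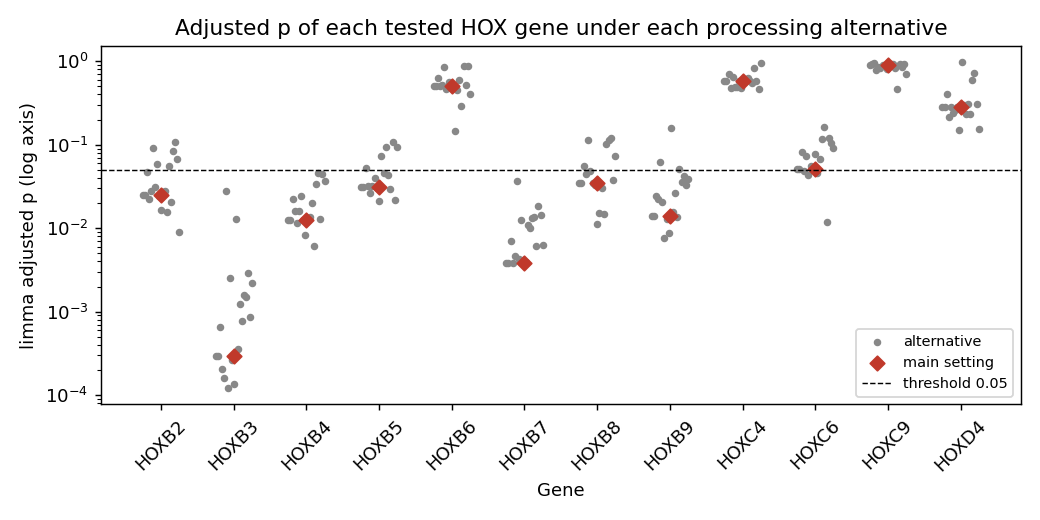
Limma adjusted p (log axis) of each tested HOX gene in the main setting (diamonds) and under each alternative that tested it (dots), with the threshold of 0.05 dashed. HOXB3, HOXB4 and HOXB7 stay under the threshold throughout, and HOXB2, HOXB5, HOXB8, HOXB9 and HOXC6 cross it.

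Arrays of one group correlated at 0.993 to 0.995 over tested genes against 0.969 to 0.972 for arrays of opposite groups. The 3'/5' ratio of ACTB was 1.26 ± 0.03 and 1.25 ± 0.01 (SD, n = 3 each). The 18S ribosomal RNA controls were 1.16-fold brighter in versican arrays (two-sided exact permutation p = 0.10, which is the floor for 3 against 3), and their part in the HOX results was not tested. Of 10 fibroblast markers 2 were on, and their summed signal was 9468 to 10167 in control and 8032 to 8350 in versican arrays. Of the fibroblast markers that were not on, COL3A1 and DCN stayed at or below 49.8. COL1A2, THY1, FAP and POSTN stayed at or below 77.8, and PDGFRB read 51.1 to 112 over all arrays. LUM read 61.4 to 124 in control and 27.9 to 45.3 with versican. For 6 leukocyte markers the sums were 925 to 980 and 1081 to 1152, with PTPRC at or below 30.4. Sums for 6 endothelial markers were 991 to 1048 and 771 to 956. VWF stayed at or below 10.7, and KDR and TEK at or below 51.0. CDH5 was brighter though not on, reading 222, 133 and 162 in control and 177, 171 and 99.4 with versican. PECAM1 read 64.2 to 121 over all arrays. COL1A1 and COL6A3, LAPTM5 and TIE1, the markers that were on, made up most of these sums. COL1A1 fell 1.85-fold (adjusted p = 4.3e-06) and COL6A3 rose 1.16-fold (adjusted p = 0.024). COL1A1 was not called with the mean of its probe sets (adjusted p = 0.26). COL6A3 was not called without control replicate 1 (adjusted p = 0.061), versican replicate 2 (0.075) or versican replicate 3 (0.052). Nor was COL6A3 called with median centring (0.110) or without an intensity trend (0.056). LAPTM5 rose and TIE1 fell (log2 0.31 and -0.32, adjusted p = 0.0032 and 0.013). These 4 genes moved with the groups, and their part in the HOX results was not tested.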

How the data were processed

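Each array's deposited values are linear intensity signals per probe set, which the authors computed with MAS5 according to GEO's processing notes. The sources used here do not state the MAS5 version, scaling target or detection calls. The 2% trimmed mean was 500.1 on each array. GEO's platform annotation gave 1 symbol to 41091 probe sets and several to 1801, which were left out, and 41043 of the single-symbol probe sets were matched to RefSeq's current symbols by gene identifier. Each gene took its brightest probe set. Differences were taken on log2(signal + 16), which understates changes of dim genes. The upper 50% of genes by mean (9887) were fitted in limma 3.58.1 (R 4.3.3) with lmFit and eBayes, using a trend on intensity. Tests were two-sided, and Benjamini-Hochberg adjusted p under 0.05 was a call. The code was tested on simulated data. Alternatives were pseudocounts of 1 and 64, other filters, normalizations, variance models and probe set rules, a replicate block, and leaving out each array. Same-numbered arrays did not deviate together (correlations 0.119, -0.019 and -0.090). Members and gene lists were chosen with earlier results of these data known. All members are covered, those on or called by value and the others by range. In the other lists, called genes are named, or the 2 with the smallest p where none was called, besides cell type markers. Figures were drawn with matplotlib 3.10.9. The number of arrays limits the precision.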

Additional observations from a re-analysis of the deposited data

How the results depend on the processing

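HOXB3, HOXB4 and HOXB7 were called under every alternative that tested them, and no called HOX gene changed direction under any. The HOX counts (3 higher, 4 lower) moved by over 1.5 times in a few settings. Among the upper 25% of genes 1 HOX gene was lower, since 4 HOX genes were tested there. With median centring 2 of 12 were higher and 2 lower, where 30.5% of all tested genes were called (41.6% in the main setting). With every probe set as its own unit 5 of 18 tested HOX probe sets were higher and 4 lower, where 33.2% of all were called. The median over HOX genes was -0.061 with no filter, where all 28 entered. Leaving out 1 array gave 1 to 3 higher and 2 to 4 lower. The count of HOX genes on in control was 4 at the 75th percentile, 7 without _x_at and _s_at probe sets, and 12 without any 1 control array. Without _x_at and _s_at probe sets HOXB5, HOXB7 and HOXC6 were not measured. All genes called were 1290 higher and 1131 lower among the upper 25%, 3385 and 3428 with every probe set as its own unit, and 1680 to 1940 and 1639 to 1911 without 1 array. Calls in the other lists (17 higher, 21 lower) were 11 and 11 among the upper 25%, 31 higher with every probe set as its own unit, 10 higher with median centring and 13 lower with the mean of probe sets. Without 1 array they were 12 to 16 higher and 13 to 19 lower. The cause of the changes with median centring, probe sets and single arrays was not tested.

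With the replicate number as a block 3 HOX genes were called higher and 4 lower, 40.2% of all tested genes were called, and the median over HOX genes was 0.04. The numbers were not taken to pair arrays. Dim probe sets limit what could be tested: 16 of 28 HOX genes lay below the filter.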

Other observations

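Homeobox genes outside the clusters, which encode related transcription factors, were also measured. Of 65 measured 14 were tested, and 2 rose (background 21%) and 5 fell (background 20.6%). ISL1, a LIM-homeodomain gene, read 528, 318 and 274 in control and 611, 625 and 663 with versican, a rise of 1.73-fold (adjusted p = 0.0081). SIX5 and SHOX2 fell 1.42-fold and 1.30-fold (adjusted p = 0.0039 and 0.0097), and each was called under all 17 alternatives that tested it. LHX1, DLX4, SIX4 and TGIF2 made up the remaining calls, and each was lost under at least 1 alternative. LHX1 was not on in control and passed the filter through its versican arrays.

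The nearest 2 measured protein-coding genes on each side of each cluster were taken by position, a choice made after the HOX values were seen. Of these 16 genes 13 were on in control, against 48.6% of all genes, and the same 13 were tested. SKAP1, TTLL6 and EVX1 were neither on nor tested. Beside HOXD13, where the HOX genes were dim, LNPK and ATP5MC3 were on. Beyond HOXC13, CALCOCO1 and ATP5MC2 fell 1.23-fold and 1.18-fold (adjusted p = 0.022 and 0.0047). Around the HOXA cluster SKAP2 and HIBADH fell 1.27-fold and 1.35-fold (adjusted p = 0.0022 and 0.0032). No tested flanking gene of the HOXB or HOXD cluster passed, and none of any cluster was called higher. The background was 20.6% lower and 21% higher among all tested genes.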
